A study of Mus musculus with 6 samples.

Results

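The EGR and NR4A immediate early factors were followed in the newborn mouse cortex with and without Slc7a5. The 7 genes Egr1, Egr2, Egr3, Egr4, Nr4a1, Nr4a2 and Nr4a3 were taken by their symbols from the 52550 gene identifiers of the count tables, and all 7 were among the 14913 genes with enough counts to be tested. The knockout group (n = 3) carried the genotype Slc7a5fl/fl; Emx1Cre+, and the control group (n = 3) carried Slc7a5fl/fl; Emx1Cre-, so both groups bear the floxed alleles and only the knockouts bear Cre. All mice were labelled C57BL6/J and aged P2, postnatal day 2, and each library was polyadenylated RNA from 1 cortical hemisphere. Controls are called wild type in the series' design text, which counts 3 biological replicates per genotype. Titles give the libraries of each genotype the letters A, B and C. Emx1-driven Cre acts in the progenitors of the dorsal forebrain, which give rise to its excitatory neurons and astrocytes, and spares microglia, vessels and most cortical interneurons. Cre and the deletion always go together here, and what each contributes cannot be told apart.

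Both families are switched on within minutes of neuronal activity or growth factor signals, without new protein synthesis. Calcium entry and the ERK kinase cascade activate the transcription factors CREB, SRF with its ETS partners, and MEF2, which are already bound at these promoters. The EGR proteins are zinc-finger activators that bind GC-rich sites, and the NR4A proteins are orphan nuclear receptors that act without a known hormone. LAT1, whose light chain is the product of Slc7a5, carries large neutral amino acids into cells, and the study's title sets the level of these amino acids beside neuronal excitability and survival.

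Promoter sequences of the members are shown first, because activity signals are known to reach genes of this kind through short promoter elements. Of the 7 members, 5 have entries in the RefSeq promoter table of GRCm38.p6. The lines give the bases just before an annotated start site, 5′ to 3′ on the gene's strand, in lower case. Capitals mark the core TGACG of the cAMP response element, which CREB binds, read on both strands, and the CArG box, which SRF binds. The windows lie at chr10:67537619-67537868 on the plus strand for Egr2, chr6:85513590-85513839 on the minus strand for Egr4, chr15:101266596-101266845 on the plus strand for Nr4a1, chr2:57124004-57124253 on the minus strand for Nr4a2 and chr4:48045055-48045152 on the plus strand for Nr4a3. The table holds 5 windows for Egr2, and the one that ends at the start of a GENCODE M21 transcript is shown. The Nr4a3 line ends at base 153 before the RefSeq start, where an exon of GENCODE M21 begins.
Egr2: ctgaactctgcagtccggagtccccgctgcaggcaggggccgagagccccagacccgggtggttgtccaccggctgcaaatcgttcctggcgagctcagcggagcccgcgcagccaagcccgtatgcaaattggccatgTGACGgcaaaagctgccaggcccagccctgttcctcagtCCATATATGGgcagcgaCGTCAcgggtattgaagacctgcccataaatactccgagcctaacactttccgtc
Egr4: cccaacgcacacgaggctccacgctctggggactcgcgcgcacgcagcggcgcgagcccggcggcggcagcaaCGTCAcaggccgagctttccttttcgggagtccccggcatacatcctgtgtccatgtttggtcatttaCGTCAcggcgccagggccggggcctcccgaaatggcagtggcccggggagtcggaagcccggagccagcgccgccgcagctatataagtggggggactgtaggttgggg
Nr4a1: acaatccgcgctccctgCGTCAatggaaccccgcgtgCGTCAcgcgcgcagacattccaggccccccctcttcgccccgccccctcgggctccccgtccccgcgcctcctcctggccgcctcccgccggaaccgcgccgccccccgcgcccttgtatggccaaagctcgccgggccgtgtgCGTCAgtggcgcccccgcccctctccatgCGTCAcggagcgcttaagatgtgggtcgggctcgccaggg
Nr4a2: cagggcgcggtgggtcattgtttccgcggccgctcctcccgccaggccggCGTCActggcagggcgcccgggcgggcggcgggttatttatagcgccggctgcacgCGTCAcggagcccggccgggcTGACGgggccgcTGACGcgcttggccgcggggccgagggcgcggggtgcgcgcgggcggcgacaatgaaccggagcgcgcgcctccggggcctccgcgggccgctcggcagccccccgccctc
Nr4a3: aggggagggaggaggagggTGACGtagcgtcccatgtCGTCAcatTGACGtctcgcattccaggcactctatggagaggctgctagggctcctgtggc

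Each of these windows held the core TGACG more than once. Egr2 and Egr4 had 2 copies each, Nr4a1 and Nr4a2 had 4 each, and the 98 bases shown for Nr4a3 had 3. Among the Egr2 windows not shown, those before the starts at 67535499 and 67537566 held no copy, and the others held 2. The full 250 bases of Nr4a3 held a further copy inside the exon. Among all 32851 promoter windows of 250 bases in the table, 17.8% held at least 1 copy, 3.90% at least 2, 0.688% at least 3 and 0.137% at least 4. The CArG box was found in the Egr2 window alone, from 72 to 63 bases before the start, and in 1.47% of all windows. The full palindrome TGACGTCA, present in 1.55% of all windows, was in none of the members' windows. The EGR site GCGNGGGCG occurred in Nr4a1 (60 to 52 bases before the start, minus strand) and in Nr4a2 (74 to 66 bases before the start, plus strand), and in 4.70% of all windows. The NR4A site AAAGGTCA, present in 1.34% of all windows, was in none of them. These matches describe letters in short windows and do not show binding.

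Total gene counts were 9524407 to 10372582 in knockout libraries and 8249436 to 10077443 in control libraries. The targeted gene Slc7a5 had 15.6, 9.37 and 11.4 CPM (counts relative to each library's scaled size) in knockouts A, B and C, against 20.2, 40.7 and 26.1 CPM in controls A, B and C. Every knockout was below every control, with a log2 change of -1.25 ± 0.28 (SE), which missed the threshold of 0.05 in edgeR's quasi-likelihood test (Benjamini-Hochberg adjusted p = 0.400) and passed in DESeq2 (adjusted p = 7.09e-04), with adjusted p from 3.88e-16 to 0.679 over all alternatives. Both libraries of letter B carried Xist, the noncoding RNA of the inactivated X in female cells, at 961 CPM in the knockout and 918 CPM in the control, and the other 4 libraries had at most 2.95 CPM. Reads outside annotated exons were 27.4 to 27.9% of mapped reads in knockouts, and 26.5, 22.5 and 23.0% in controls A, B and C. Markers of cortical projection neurons such as Neurod2, Tbr1 and Bcl11b were present in every library, at 190 to 953 CPM.

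Levels can be ordered between genes only per length, and on that scale the order was the same in both genotypes. Nr4a2, the receptor Nurr1, known in the cortex as a marker of subplate, deep-layer and claustrum neurons, was far above the rest. It had 40.6 ± 4.15 CPM per kilobase of annotated exon in knockouts and 43.5 ± 3.28 in controls (SD, n = 3 each), above 92.1% and 92.3% of the tested genes. It supplied 60.2% of all reads of the 7 genes in knockouts and 56.2% in controls. Egr1, the most studied factor of its family in synaptic plasticity, came next with 8.29 ± 0.61 CPM per kilobase in knockouts and 10.6 ± 2.71 in controls. Nr4a3, the receptor NOR1, followed at 6.70 ± 0.28 in knockouts and 7.95 ± 0.64 in controls, and its control libraries overlapped those of Egr1 while its knockout libraries did not. Nr4a1, the receptor Nur77, stood at 4.57 ± 1.35 CPM per kilobase in knockouts and 5.88 ± 0.86 in controls, overlapping neither Nr4a3 nor Egr4 in either genotype. Egr4 had 2.52 ± 0.51 in knockouts and 3.80 ± 0.89 in controls, and Egr3 had 2.03 ± 0.26 in knockouts and 2.79 ± 0.41 in controls, so that these neighbours overlapped in both genotypes. Egr2, which outside the cortex patterns the hindbrain and drives myelination in Schwann cells, was lowest at 0.345 ± 0.17 CPM per kilobase in knockouts and 0.488 ± 0.17 in controls, above 4.10% and 7.99% of tested genes.

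**Figure D1:**
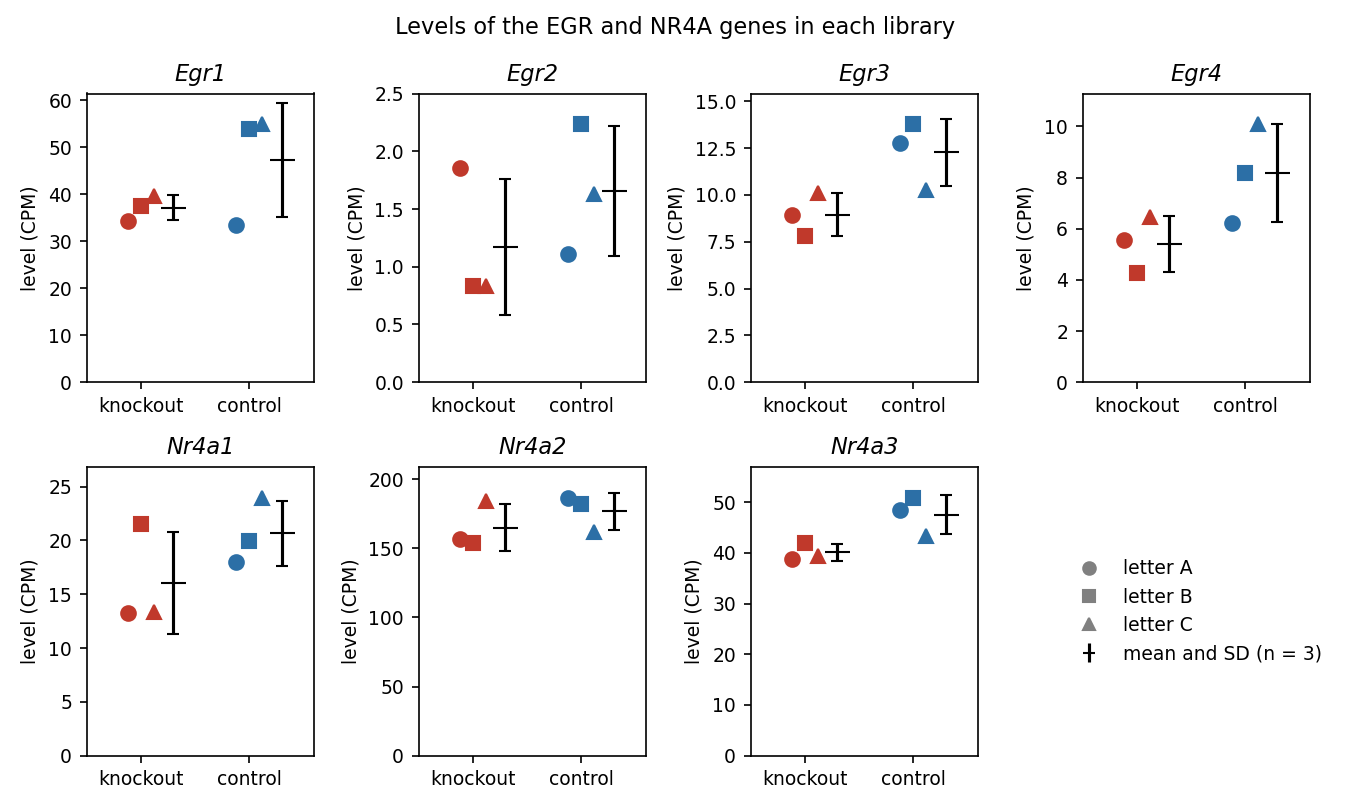
Level of each EGR and NR4A gene in CPM (vertical axes from 0, a scale per gene) in the 3 knockout and 3 control libraries, with a marker per letter and the mean and SD beside them. The groups of Egr3 and Nr4a3 do not overlap, and those of the other 5 genes do.

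The comparison of knockout with control asks whether these activity-driven factors differ when the carrier is removed from the Emx1 lineage. All 7 genes had log2 changes below 0, as had 49.8% of all tested genes, and none of the 7 passed the test. In edgeR's quasi-likelihood test 0 of 7 members had an adjusted p under 0.05, where 0.0335% of all genes passed. With the letter as a block again 0 of 7 passed, where 0.845% of all genes did. The members' adjusted p in that fit ran from 0.186 (Egr1) to 0.752 (Nr4a2). In DESeq2 0 of 7 passed, where 0.136% of the 19070 genes with an adjusted p did. The edgeR values printed for single genes come from the fit by group alone unless the block is named. At an unadjusted p under 0.05 there were 3 members in edgeR (Egr3, Egr4 and Nr4a3), 5 with the block (these and Egr1 and Nr4a1) and 3 in DESeq2 (Egr1, Egr3 and Egr4), all lower in the knockout. The shares of all genes lower at that level were 3.81%, 6.46% and 1.84% in the same order. The edgeR shares are over 14913 genes. The DESeq2 share is over 25648, without edgeR's filter on low counts, so it is not on the same footing. The median log2 change of the 7 was -0.36, and that of all genes tested was 0.0011. The members were chosen with earlier results of these data known, so these shares describe them and are no independent evidence. In bulk tissue, fewer cells of a type and less RNA per cell cannot be told apart.

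Among the EGR factors, Egr4 (ENSMUSG00000071341, chromosome 6 from 85511121 to 85513589, minus strand, GRCm38) had the lowest fold change. Its level was 5.56, 4.27 and 6.44 CPM in knockouts A, B and C, against 6.24, 8.19 and 10.1 CPM in controls A, B and C. Knockout C lay just above control A, and within every letter the knockout was below its control. The log2 change was -0.59 ± 0.24 (SE, edgeR adjusted p = 0.640), with a 95% interval from 0.468-fold to 0.937-fold before adjustment. Egr3 (ENSMUSG00000033730, chromosome 14 from 70077203 to 70082614, plus strand), a factor that acts in synaptic plasticity and muscle spindles, had 8.95, 7.79 and 10.1 CPM in knockouts A, B and C, against 12.8, 13.8 and 10.3 CPM in controls A, B and C. The groups did not overlap, although knockout C and control C differed by 0.03 on the log2 scale. Its log2 change was -0.46 ± 0.18 (edgeR adjusted p = 0.640), with an interval from 0.558-fold to 0.952-fold.

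Egr1 (ENSMUSG00000038418, chromosome 18 from 34859823 to 34864984, plus strand) had 34.3, 37.6 and 39.7 CPM in knockouts A, B and C, against 33.4, 54.0 and 54.9 CPM in controls A, B and C. Knockouts were tightly grouped, and control A lay below them all while controls B and C stood above. The share of reads outside exons of the counted strand split the controls in the same way, with control A near the knockouts. The part of that share in the result was not tested. The log2 change was -0.35 ± 0.17 (edgeR adjusted p = 0.718), and it was -0.55 without control A and -0.23 without control C. Variance between control libraries was 30.2 times that of counting error for Egr1, against 1.94 times between knockouts. Egr2 (ENSMUSG00000037868, chromosome 10 from 67535475 to 67542188, plus strand) had only 18, 9 and 8 counts in knockouts A, B and C, against 11, 18 and 16 counts in controls A, B and C. That is 1.85, 0.835 and 0.831 CPM in knockouts, against 1.11, 2.23 and 1.63 CPM in controls. Letter A ran opposite to B and C, and the interval of the change, from 0.378-fold to 1.36-fold, shows that this depth cannot resolve a difference in Egr2 (log2 change -0.48 ± 0.43, edgeR adjusted p = 0.871). Its value was -0.96 without knockout A and -0.23 without control B.

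Among the NR4A receptors, Nr4a3 (ENSMUSG00000028341, chromosome 4 from 48045153 to 48086447, plus strand) showed the most even pattern. It had 38.9, 42.0 and 39.4 CPM in knockouts A, B and C, against 48.5, 50.9 and 43.4 CPM in controls A, B and C. Every knockout lay below every control. The differences within letters A, B and C were -0.32, -0.28 and -0.14 on the log2 scale, and the fitted log2 change was -0.25 ± 0.11 (edgeR adjusted p = 0.708), with an interval from 0.714-fold to 0.996-fold. Spread between its knockout libraries was 0.726 times the counting variance. Groups that did not overlap, with knockouts lower, were found for 2 of 7 members (Egr3 and Nr4a3) and 6.28% of all tested genes. A knockout below its control in each of the 3 letters was found for 3 of 7 (Egr3, Egr4 and Nr4a3) and 16.8% of all tested genes.

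Nr4a1 (ENSMUSG00000023034, chromosome 15 from 101254269 to 101274795, plus strand) had 13.3, 21.5 and 13.3 CPM in knockouts A, B and C, against 18.0, 19.97 and 23.9 CPM in controls A, B and C. Knockouts A and C were below all controls, and knockout B was within the controls' range. The log2 change was -0.36 ± 0.19 (edgeR adjusted p = 0.749). Without knockout B it was -0.63 (adjusted p = 0.271), and in the fit with the letter as a block and without letter B, the pair with Xist, Nr4a1 passed at -0.64 (edgeR adjusted p = 0.0205). That fit held only letters A and C, and it left out the letter in which Nr4a1 was higher in the knockout (log2 difference 0.11). Over the whole table it called 161 genes, against 126 in the blocked fit with all letters. In the blocked fit without letter C the value of Nr4a1 was -0.16 (edgeR adjusted p = 0.937), and over all alternatives its adjusted p ran from 0.0205 to 1. Nr4a2 (ENSMUSG00000026826, chromosome 2 from 57106830 to 57124003, minus strand) had 157, 154 and 184 CPM in knockouts A, B and C, against 186, 182 and 161 CPM in controls A, B and C. The groups overlapped, with letter C opposite to A and B. With 4955 counts in knockouts and 4907 in controls it was the best measured member, and its log2 change was -0.10 ± 0.11 (edgeR adjusted p = 0.905), with an interval from 0.795-fold to 1.10-fold. Markers of subplate and layer 6 neurons, the cells Nr4a2 is known for, summed to 819 to 853 CPM in knockouts and 862 to 895 CPM in controls. These sums did not overlap. Of the 10 genes, 6 had values below 0 and 4 above (median -0.076), and none was called in edgeR, with or without the block. Markers of the claustrum summed to 458 to 615 CPM in knockouts and 488 to 539 CPM in controls. Of the 4 tested, 3 had values below 0 (median -0.12), and none was called in edgeR, with or without the block. Gng2, the 1 above 0, supplied most of the sum, at 362 to 516 CPM in knockouts and 381 to 400 CPM in controls.

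**Figure D2:**
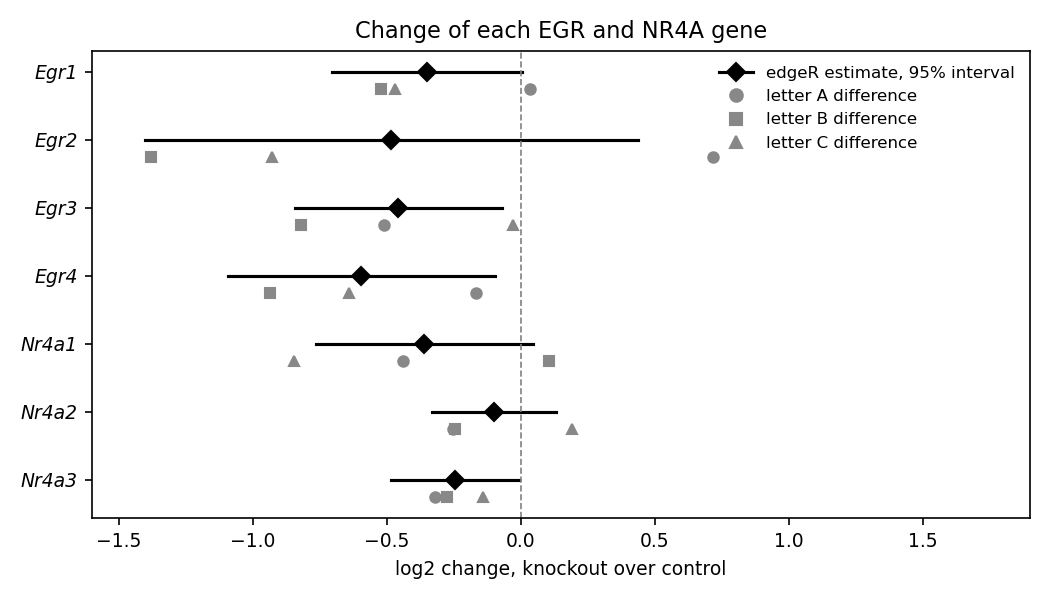
Log2 change of each gene, knockout over control (horizontal axis), as edgeR's estimate with its unadjusted 95% interval (black) and as the difference within each letter (grey). Estimates run from -0.59 for Egr4 to -0.10 for Nr4a2, and the interval lies below 0 for Egr3, Egr4 and Nr4a3.

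Read by library rather than by gene, 6 of the 7 genes lay below their own mean over the 6 libraries in each of the 3 knockouts, against 3, 0 and 3 of 7 in controls A, B and C. The exceptions were Egr2 in knockout A, Nr4a1 in knockout B and Nr4a2 in knockout C. Each mean spans both groups, so with all 7 log2 changes below 0 most knockout values must fall below it. These counts restate that result and are no separate finding, and their share over all tested genes was not computed. The 4 EGR genes summed to 50.6, 50.5 and 57.0 CPM in knockouts A, B and C, against 53.6, 78.2 and 76.9 CPM in controls A, B and C, a ratio of means of 0.758. For the 3 NR4A genes the sums were 209, 217 and 237 CPM in knockouts and 253, 253 and 229 CPM in controls, a ratio of means of 0.903. Reads of EGR genes per NR4A read were 0.243, 0.232 and 0.241 in knockouts A, B and C, against 0.212, 0.309 and 0.336 in controls A, B and C. The knockouts thus sat between control A and the other controls, and a difference between the families was not tested. Most of the EGR sum came from Egr1 and most of the NR4A sum from Nr4a2, so the sums mainly follow these genes. By gene, the ratio of means was 0.784 for Egr1, 0.933 for Nr4a2, 0.777 for Nr4a1 and 0.843 for Nr4a3.

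**Figure D3:**
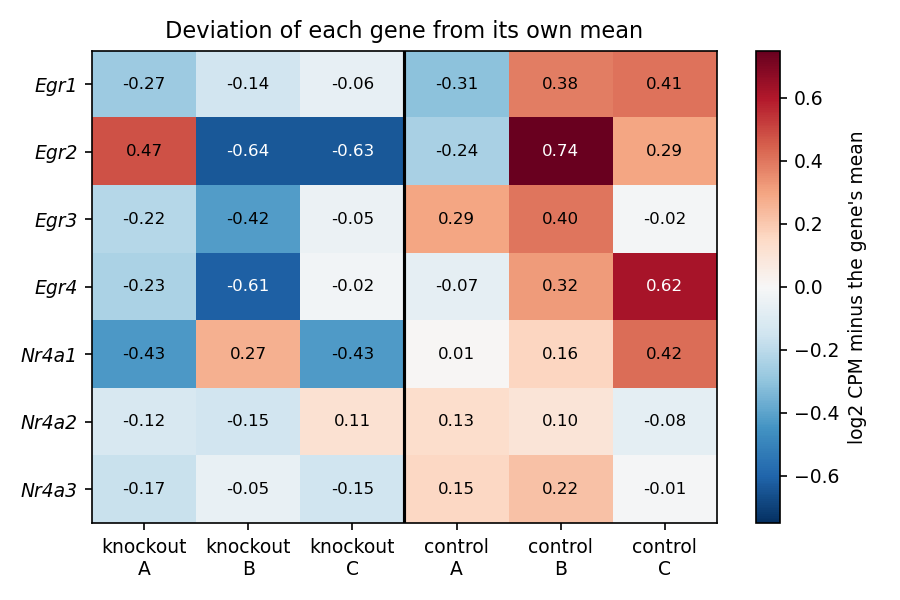
Log2 CPM of each gene minus its mean over the 6 libraries (colour and printed value), with knockouts left of the line and controls right of it. Control B holds no value below 0, and each knockout holds a single value above 0.

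Profiles over the 6 libraries were compared by the root-mean-square difference of log2 CPM, each gene centred on its own mean. Among the 21 pairs of members, Nr4a2 and Nr4a3 were closest at 0.13, followed by Egr3 and Nr4a3 at 0.18. A flat profile would lie at a member's own root-mean-square deviation from its mean, which was 0.12 for Nr4a2, 0.14 for Nr4a3 and 0.28 for Egr3, so Nr4a2 lay nearer to a flat profile than to Nr4a3, and Nr4a3 nearer to a flat profile than to Egr3. Egr1 and Egr4 differed by 0.24, less than their own deviations of 0.29 and 0.39, and the widest gap was 0.59 between Egr2 and Nr4a1. Outside the families 10529 genes with at least 5 CPM were searched. The profile nearest to Nr4a1 was that of Kcnh3, a voltage-gated potassium channel, at 0.060, ahead of Yif1b at 0.085 and the neutral amino acid carrier Slc6a15 at 0.092. Egr4 came nearest to Slc41a2 (0.12), Trim67 (0.14) and Slc3a2, the heavy chain of LAT1 (0.14). Egr3 lay nearest to Fhl2 (0.098), Tigar (0.099) and Itpka, a calmodulin-regulated kinase of dendritic spines (0.11). For Egr1 the nearest were Plcd1 (0.069), Dnajb5 and Gnb2 (0.079 each), and for Nr4a3 they were Flrt1, Hip1r (0.034 each) and Stk39 (0.038). Egr2 lay nearest to Zfp658 (0.24), Zfp939 (0.26) and Pcyox1l (0.27), and Nr4a2 to Zxdc (0.032), Thap2 (0.037) and AU022252 (0.038). None of the genes named for likeness passed edgeR's test, with adjusted p of 0.462 or more, and close profiles are found by construction in so wide a search.

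The signalling that feeds these promoters was read from lists of known genes. Of 38 genes of calcium and ERK signalling to the nucleus 27 had values below 0 and 11 above, with a median log2 change of -0.071, and none was called in edgeR with or without the block. Their summed level was 10280 to 10640 CPM in knockouts and 11600 to 11810 CPM in controls, without overlap. Camkk1, a kinase that activates other calmodulin-dependent kinases, had 29.2 ± 4.27 CPM in knockouts and 37.1 ± 4.85 CPM in controls, and a log2 change of -0.35 ± 0.14 (edgeR adjusted p = 0.640).

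Of the 17 activators of the SRF, CREB and MEF2 groups, 11 had values below 0 and 6 above, with a median of -0.034 and no call in either fit. Mef2c had 927 ± 32.6 CPM in knockouts and 1161 ± 103 CPM in controls (log2 change -0.32 ± 0.10, edgeR adjusted p = 0.473). Crtc3, a coactivator of CREB, ran the other way, with 36.6 ± 2.34 CPM in knockouts and 29.2 ± 1.91 CPM in controls (0.33 ± 0.12, edgeR adjusted p = 0.597). Srf and Creb1 themselves had log2 changes of -0.013 ± 0.14 and -0.034 ± 0.098. Of 10 feedback inhibitors of ERK, which are themselves induced by its activity, 6 had values above 0 and 4 below (median 0.037, no call in either fit). Dusp6 had a log2 change of -0.18 ± 0.11 and Dusp14 of 0.18 ± 0.18. The 13 cofactors had 8 values above 0 and 5 below (median 0.057, no call in either fit). Ncoa1, a coactivator of nuclear receptors, had 0.21 ± 0.11, and Nab1, a corepressor bound by EGR proteins, had -0.26 ± 0.15.

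Other rapid response factors, the AP-1 genes among them, were tested for 20 of 22 genes, of which 14 had values below 0 and 6 above (median -0.12, no call in either fit). Bhlhe40 had 11.1 ± 1.28 CPM in knockouts and 16.0 ± 2.48 CPM in controls (log2 change -0.52 ± 0.17, edgeR adjusted p = 0.513), and Klf6 had 181 ± 17.9 CPM in knockouts and 211 ± 12.3 CPM in controls (-0.22 ± 0.11, edgeR adjusted p = 0.721). Known targets of the EGR and NR4A proteins were tested for 13 of 17 genes, with 7 values below 0 and 6 above (median -0.043, no call in either fit). Arc, a synaptic target of Egr1, had 3.05 ± 0.51 CPM in knockouts and 3.004 ± 0.78 CPM in controls. The monoamine transporter Slc18a2, a target of Nr4a2 in dopamine neurons, had 4.06 ± 1.04 CPM in knockouts and 2.65 ± 0.40 CPM in controls (0.61 ± 0.29, edgeR adjusted p = 0.712). Pomc, a pituitary target of Nr4a1, had 1.18 ± 0.33 CPM in knockouts and 2.41 ± 1.20 CPM in controls (-1.03 ± 0.41, edgeR adjusted p = 0.640). Both genes were low, and their groups overlapped. Slc18a2 had 2.97 CPM in knockout B and 3.10 CPM in control B. Pomc had 3.72, 1.36 and 2.14 CPM in controls A, B and C, against 0.823, 1.48 and 1.25 CPM in knockouts A, B and C.

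**Figure D4:**
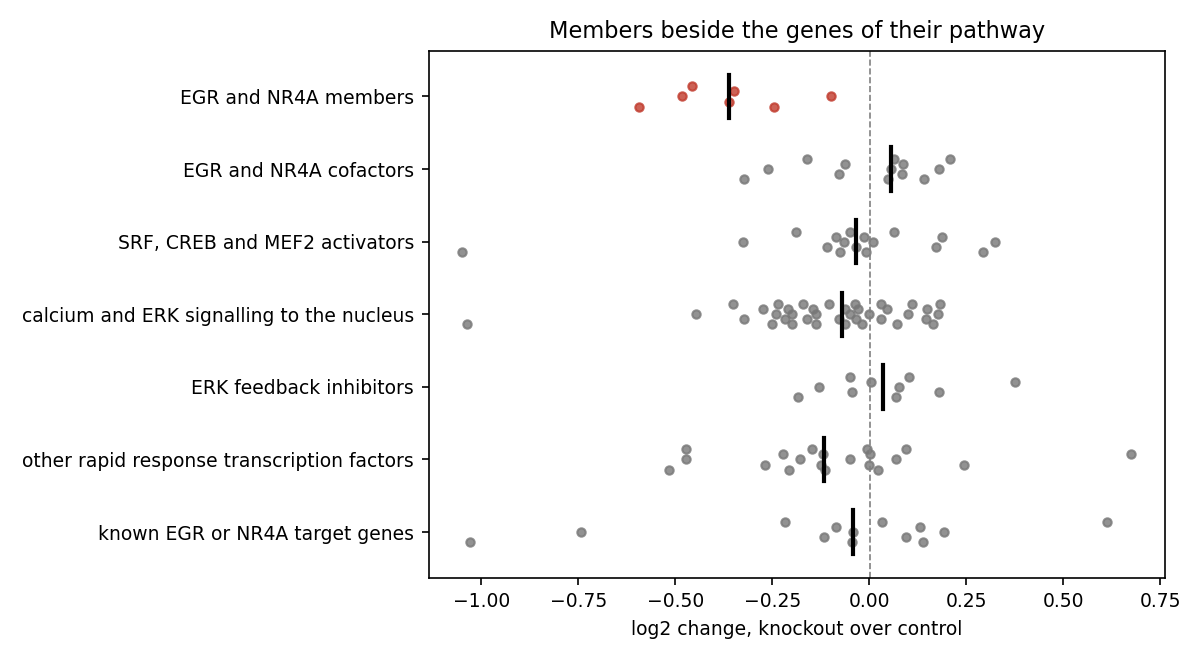
Log2 change, knockout over control (horizontal axis), of each tested gene (points) in the member list (red) and 6 pathway lists (grey). Black bars are list medians and the dashed line is the median of all genes tested. The members' median of -0.36 lies below the other list medians, which run from -0.12 to 0.057.

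Immediate early genes also answer to handling of the tissue, so heat shock and handling genes are given beside them. The 5 listed genes summed to 185 to 235 CPM in knockouts and 229 to 255 CPM in controls, and 2 of the 4 tested had values below 0. Those 2, Hsph1 and Dnajb1, which encode chaperones, supplied most of the sum. The other 2 were above 0 at low levels. Hspa1a had 3.91 CPM in knockouts and 3.73 CPM in controls (log2 change 0.069 ± 0.27). Hspa1b had 1.31 CPM in knockouts and 1.29 CPM in controls (0.032 ± 0.43). Hsph1 had 110, 94.0 and 114 CPM in knockouts A, B and C, against 132, 131 and 129 CPM in controls A, B and C, without overlap (log2 change -0.30 ± 0.10, unadjusted p = 0.0107, edgeR adjusted p = 0.541). Dnajb1 had 96.6 ± 15.7 CPM in knockouts and 104.8 ± 12.6 CPM in controls (SD, n = 3 each; log2 change -0.12 ± 0.12, edgeR adjusted p = 0.899). These 4 genes were named after their values were seen, and the part of handling in the members' values was not tested. Projection neuron markers summed to 2943 to 3304 CPM in knockouts and 3060 to 3417 CPM in controls, with 8 of 11 values below 0 (median -0.13), no call in edgeR and 4 lower calls with the block. Interneuron markers summed to 1563 to 1921 CPM in knockouts and 1510 to 1627 CPM in controls, with 9 of 10 values above 0 (median 0.24) and 1 higher call with the block. Microglia markers summed to 157 to 199 CPM in knockouts and 133 to 166 CPM in controls, with 9 of 10 values above 0 (median 0.19). Endothelial markers summed to 132 to 161 CPM in knockouts and 116 to 159 CPM in controls, with 7 of 7 values above 0 (median 0.22). Striatal markers, which would mark neighbouring tissue, summed to 288 to 339 CPM in knockouts and 282 to 354 CPM in controls, with 4 of 6 values below 0 (median -0.044). Astrocyte markers summed to 636 to 725 CPM in knockouts and 624 to 720 CPM in controls, with 4 of 7 values below 0 (median -0.0028). Those of radial glia and progenitors summed to 385 to 415 CPM in knockouts and 332 to 378 CPM in controls, without overlap and with 6 of 7 values above 0 (median 0.30). Those of the oligodendrocyte lineage summed to 201 to 218 CPM in knockouts and 227 to 269 CPM in controls, without overlap and with 6 of 6 values below 0 (median -0.20). Meningeal and fibroblast genes ranged from 8.34 to 98.1 CPM in knockouts and from 7.75 to 101 CPM in controls, blood genes from 398 to 479 CPM in knockouts and from 387 to 545 CPM in controls, and thalamus and choroid plexus genes from 37.1 to 58.7 CPM in knockouts and from 24.8 to 172 CPM in controls. Of their tested genes, 4 of 4 meningeal and fibroblast values were above 0 (median 0.38), 5 of 5 blood values below 0 (median -0.093) and 3 of 3 thalamus and choroid plexus values below 0 (median -0.42). From microglia to thalamus and choroid plexus, no gene of these lists was called in edgeR, with or without the block. No listed marker was at 0 in all 6 libraries. The part of these shifts in the members' values was not tested.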

How the data were processed

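Raw counts of reads per gene, 1 table per library, were deposited by the authors without normalisation, in a layout that matches STAR's. Per the submitters' processing notes, the build was GRCm38 (also listed as mm10) and STAR 2.5.4 was the tool named; the annotation is not given in the sources used here. Per the labels' protocols, libraries were made with the Lexogen SENSE mRNA-Seq kit. The strand column of the first read was used, which held 17.5 to 19.2 times as many gene reads as the other. No table listed any multi-mapping reads. Reads outside exons of the strand used were 22.5 to 27.9% of mapped reads and, with the other summary lines, stayed out of library sizes and tests. Symbols and exon lengths came from GENCODE M21, and promoters from RefSeq.

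The tests ran in edgeR 4.0.16 under R 4.3.3: filterByExpr, TMM scaling, robust quasi-likelihood F-test, two-sided, Benjamini-Hochberg adjusted p under 0.05 over all genes tested. CPM uses TMM-scaled library sizes. DESeq2 1.42.0 was an alternative. The SE is the log2 change divided by the square root of F.

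The members and the 21 gene lists were chosen with earlier results of these data known. From each pathway list, genes called in edgeR with or without the block were to be named, otherwise the 2 with the smallest p; Slc7a5, all members and the 3 nearest profiles of each member were named too. Srf, Creb1 and Arc were named after their values were seen. One gene that this rule picks is not reported here. Differences within letters and the fits with the block treated letters as pairs, while the main test used the group alone. Pairing was considered because deviations from the group means correlated at 0.438, 0.364 and 0.218 between same-lettered libraries and at most -0.0315 between others. Each group was centred on its own mean, which pushes values between different letters below 0 when same-letter values are positive. The negative values are thus no separate evidence of pairing. The labels do not say what the letters mark. Every pair of libraries differed by more than sampling noise (lowest chi-square 4.02 for each degree of freedom), and p-values measure the spread between these samples.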

Additional observations from a re-analysis of the deposited data

How the results depend on the processing

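Each member kept a log2 change below 0 under all 15 alternatives, and all stayed without a call except Nr4a1 in the fit with the replicate block and without letter B (1 member called). Leaving out 1 library at a time gave -0.55 to -0.23 for Egr1, -0.96 to -0.23 for Egr2, -0.57 to -0.36 for Egr3, -0.76 to -0.41 for Egr4, -0.63 to -0.24 for Nr4a1, -0.19 to -0.050 for Nr4a2 and -0.31 to -0.19 for Nr4a3, with 0 members called each time. The number of genes called over the whole table was 5, and it was 126 with the replicate block (all 5 included), 26 with DESeq2, 30 with DESeq2 and the replicate block, and 71 without the filter on low counts. Without 1 library it ranged from 1 (without knockout B) to 9 (without knockout C), with 2 without control A or control B. With the replicate block it was 228 without letter A, 161 without letter B and 77 without letter C. The replicate block changed no call among the members with all libraries kept. The cause of these shifts was not tested. Depth limits Egr2 most, with 35 counts in knockouts and 45 in controls.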

Other observations

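Reads on the opposite strand of the members numbered 3 in knockouts and 5 in controls, all at Egr1, Egr2 or Nr4a1. Crtc2, a CREB coactivator from the lists above, stood at 1.75, 14.3 and 1.04 CPM in knockouts A, B and C, against 2.01, 18.5 and 16.0 CPM in controls A, B and C. It was singled out after its values were seen, and its log2 change was -1.05 ± 1.31 (edgeR adjusted p = 0.927).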
